A study of Mus musculus with 24 samples.

Results

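TNF, its receptors and the inhibitors, subunits and target genes of NF-kappaB were followed in RNA sequencing data from the injured mouse brain. The 10 genes were taken by symbol from a table of 36333 genes: the cytokine gene Tnf, the receptor genes Tnfrsf1a and Tnfrsf1b, the inhibitor genes Tnfaip3 and Nfkbia, the subunit genes Nfkb2 and Relb, and Birc3, Tnfaip2 and Tnfaip8l2. All 10 were found, and all 10 passed the filter of a mean of at least 0.5 TPM (a transcript level scaled by gene length and to the same total in every library) that 17267 genes passed. Brain tissue of 24 male mice was sequenced at 5 dpi (days post injury), with 1 library per mouse. The sample labels give the strain as C57BL6N and the age as between 12 and 16 weeks. The methods of the study instead name the JRj substrain and an age range with the same lower but a smaller upper limit. Which of these descriptions holds for the sequenced mice could not be settled from the data.

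Traumatic brain injury (TBI) was set by controlled cortical impact, a piston strike on the exposed brain surface, and sham mice were anaesthetised and received a skin incision without opening of the skull. Of the mice with TBI, 5 received vehicle, 5 received PLX3397, 5 received Anakinra and 5 received PLX3397+Anakinra, whereas 4 mice were sham-operated. PLX3397 inhibits CSF1R, the growth factor receptor on which microglia depend, and was mixed into the food at 290 mg/kg. Anakinra is a recombinant antagonist of the interleukin-1 receptor IL1R1 and was injected subcutaneously at 100 mg/kg. No gene was altered in any group, and no mice were pooled. The labels name the tissue as cortex, but the study describes sections with striatum, dorsal hippocampus and thalamus too. The 6 listed striatal and thalamic marker genes were above 0 in each group, with summed levels between 759 and 1273 TPM per mouse. Levels above 0 alone do not settle which regions were taken.

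TNF is a cytokine made as a membrane protein and released by the protease ADAM17. It binds the receptor TNFR1, which most cells carry and which has a death domain, and TNFR2, which is found mainly on leukocytes, microglia and endothelium. Both receptors pass their signal to the kinase IKK, which marks the inhibitor IkappaB-alpha for degradation and so frees NF-kappaB. NF-kappaB then induces its own inhibitors, among them IkappaB-alpha (Nfkbia) and A20 (Tnfaip3). In a slower, noncanonical branch p100 (Nfkb2) is processed to p52, which acts together with RelB. In the injured brain these transcripts can come from microglia, infiltrating leukocytes, astrocytes and endothelium alike.

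After TBI all 10 genes were higher in vehicle than in sham mice, and in each of them the 5 vehicle mice lay above the 4 sham mice. Background rates were 26.6% of all genes tested for a higher call and 21.7% for a higher level without overlap. The median difference of the 10 genes was 1.28 on the log2(TPM + 1) scale, compared with -0.01 over all genes tested. Calls rested on limma, fitted across all genes and libraries, with a Benjamini-Hochberg adjusted p below 0.05. Over the 5 groups all 10 genes differed in limma's F-test, with adjusted p-values between 1.04e-13 and 3.1e-05, whereas 51.9% of all genes did so.

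**Figure D1:**
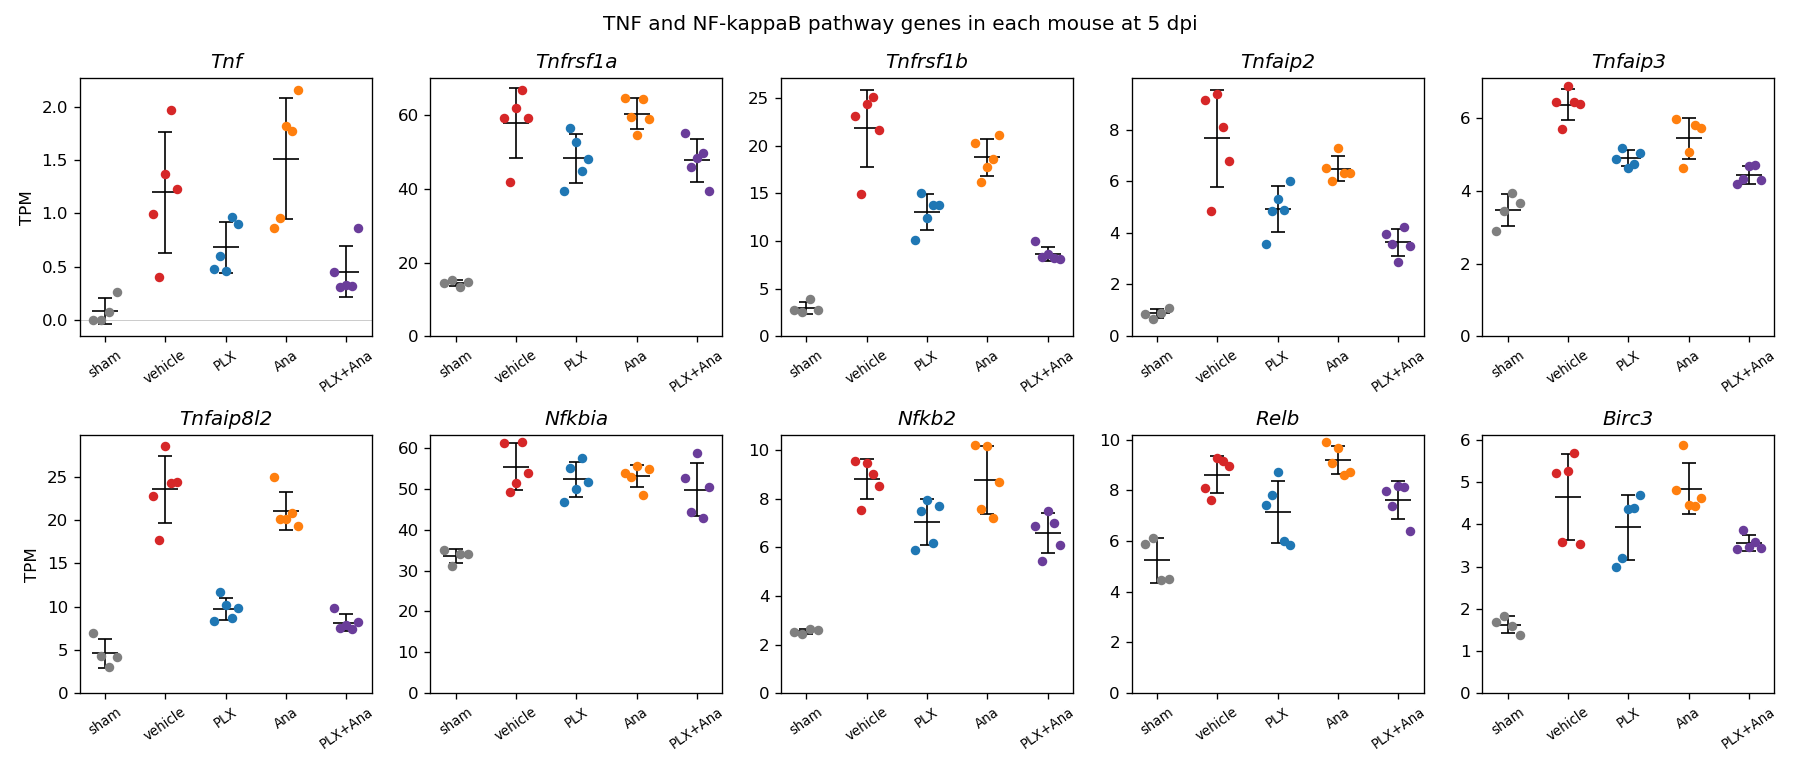
Level of each gene in TPM (vertical axis, from about 0) in each of the 24 mice (points), by group, with the group mean and SD (black); PLX stands for PLX3397 and Ana for Anakinra. The vehicle mice lie above the sham mice in all 10 panels, and the gap between vehicle and PLX3397+Anakinra is widest relative to the vehicle level for Tnfaip8l2, Tnf and Tnfrsf1b.

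Tnf, on chr17:35199367-35202007 (minus strand, GRCm38.p6), was the least abundant of the 10 transcripts. It was listed at 0 in 2 sham mice and at 0.0757 and 0.266 TPM in the other 2. In the vehicle mice it stood at 0.409, 0.999, 1.23, 1.37 and 1.97 TPM. Thus every vehicle mouse exceeded every sham mouse, but the vehicle mice themselves differed widely. The PLX3397 mice had 0.456, 0.482, 0.59985, 0.903 and 0.971 TPM. The Anakinra mice had 0.867, 0.959, 1.77, 1.83 and 2.16 TPM. The PLX3397+Anakinra mice had 0.310, 0.316, 0.333 and 0.448 TPM, and mouse J17 had 0.867 TPM. Hence 3 of 5 mice of this group lay below all vehicle mice, while J17 and the mouse at 0.448 TPM lay inside the vehicle range.

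Vehicle exceeded sham by 1.11 TPM in mean Tnf level (log2 difference 0.98, 95% interval 0.61 to 1.36, adjusted p = 5.78e-05). In order of their means the groups stood as Anakinra (1.52 TPM), vehicle (1.20 TPM), PLX3397 (0.682 TPM), PLX3397+Anakinra (0.455 TPM) and sham, and no neighbours in this order differed by an adjusted p below 0.05. PLX3397+Anakinra was 2.63-fold lower than vehicle (log2 difference -0.57, interval -0.92 to -0.22, adjusted p = 0.022) and 3.33-fold lower than Anakinra (log2 difference -0.77, adjusted p = 0.00266). PLX3397 was 2.22-fold lower than Anakinra (log2 difference -0.56, adjusted p = 0.0469). The difference of PLX3397+Anakinra from vehicle no longer passed when vehicle mouse J18B or J19B or PLX3397+Anakinra mouse J09 or J10 was left out (log2 difference between -0.72 and -0.45 over 10 omissions), and that of PLX3397 from Anakinra was lost in 6 of 10 omissions, those of J01, J02, J12, J14, J21 and J22 (between -0.66 and -0.47). At these low levels a pseudocount of 1 shrinks the log2 differences.

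The receptor genes were the most strongly raised members on the log2(TPM + 1) scale together with Tnfaip2 and Tnfaip8l2, but they parted under the drugs. Tnfrsf1a (chr6:125349723-125362483, plus strand), which encodes TNFR1, ranged from 13.4 to 15.4 TPM in sham mice and from 42.0 to 66.9 TPM in vehicle mice. It was 4.00-fold higher in vehicle (log2 difference 1.91 ± 0.11, SE, adjusted p = 2.22e-13). Means of Tnfrsf1a were 60.4 ± 4.2 TPM with Anakinra (SD, n = 5), 57.9 ± 9.4 TPM with vehicle, 48.3 ± 6.7 TPM with PLX3397 and 47.8 ± 5.8 TPM with PLX3397+Anakinra. The TBI groups overlapped, and neither PLX3397 (log2 difference -0.25, interval -0.46 to -0.04, adjusted p = 0.131) nor PLX3397+Anakinra (-0.26, interval -0.48 to -0.05, adjusted p = 0.078) passed against vehicle. Without vehicle mouse J17B, the lowest of its group at 42.0 TPM, both passed, with log2 differences of -0.36 and -0.37, and the second also passed without PLX3397+Anakinra mouse J03 (-0.32).

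Tnfrsf1b (chr4:145212368-145246870, minus strand), which encodes TNFR2, had the largest rise of the 10 genes on the log2(TPM + 1) scale. By the fold of mean TPM, Tnf and Tnfaip2 rose more. For Tnfrsf1b, sham mice had 2.51, 2.71, 2.78 and 3.92 TPM. Vehicle mice had 14.95, 21.7, 23.1, 24.4 and 25.1 TPM, 7.33-fold more on average (log2 difference 2.51 ± 0.13, SE, adjusted p = 2.41e-14). Levels stayed high with Anakinra, at 16.2, 17.8, 18.6, 20.3 and 21.1 TPM. They were lower with PLX3397, at 10.1, 12.4, 13.8, 13.8 and 15.1 TPM. The PLX3397+Anakinra mice stood at 8.14, 8.26, 8.27, 8.64 and 9.96 TPM. Every mouse of this group therefore lay below every other TBI mouse and above every sham mouse.

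PLX3397 lowered Tnfrsf1b 1.67-fold against vehicle (log2 difference -0.69, interval -0.94 to -0.45, adjusted p = 0.000247), and PLX3397+Anakinra lowered it 2.52-fold (-1.22, interval -1.47 to -0.98, adjusted p = 2.65e-08). Anakinra and vehicle did not differ by the adjusted p (-0.19, interval -0.44 to 0.05, adjusted p = 0.527). Between PLX3397+Anakinra and PLX3397 the groups did not overlap, and the exact two-sided permutation test gave p = 0.00794, the smallest it can give for 5 against 5 mice. Over all genes, however, limma's adjusted p was 0.0831 (log2 difference -0.53, interval -0.78 to -0.29). It fell below 0.05 when PLX3397 mouse J01 (-0.62) or PLX3397+Anakinra mouse J03 (-0.58) was left out.

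Because TPM are scaled by gene length, the receptor transcripts could also be compared within each mouse. The ratio of Tnfrsf1b to Tnfrsf1a was 0.376 ± 0.016 (SD, n = 5) in vehicle mice, with all mice between 0.356 and 0.394. It was 0.312 ± 0.033 with Anakinra, 0.271 ± 0.028 with PLX3397, 0.182 ± 0.015 with PLX3397+Anakinra and 0.208 ± 0.058 in sham mice (SD, n = 4). PLX3397+Anakinra did not overlap with vehicle, PLX3397 or Anakinra in this ratio (exact permutation p = 0.00794 for each, adjusted p = 0.0198 over 10 comparisons). Vehicle was above PLX3397 without overlap (exact permutation p = 0.00794, adjusted p = 0.0198) and above Anakinra with overlap (exact permutation p = 0.0159, adjusted p = 0.0265). Against sham, PLX3397+Anakinra differed by -0.0261 (exact permutation p = 0.492), and without sham mouse J15, whose ratio was 0.294, the difference was 0.00239. Within 1 mouse the ratio does not depend on the scaling of the library, and it was computed after the receptor levels had been seen.

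**Figure D2:**
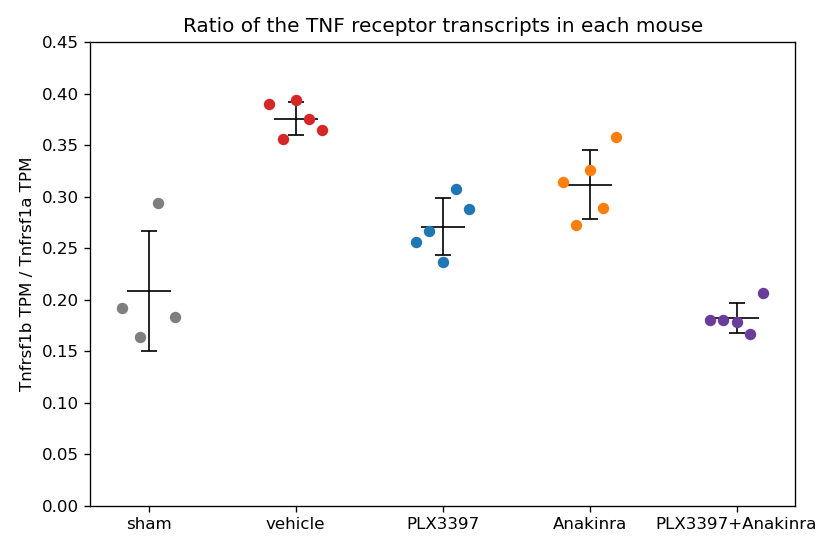
Ratio of Tnfrsf1b to Tnfrsf1a TPM (vertical axis, no unit) in each mouse (points) with the group mean and SD (black). Vehicle mice cluster between 0.356 and 0.394, and PLX3397+Anakinra mice lie between 0.166 and 0.206, within the range of the sham mice.

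The drugs lowered 4 of the 10 genes in PLX3397 mice and 6 of 10 in PLX3397+Anakinra mice against vehicle, and none was called with Anakinra. Background rates were 6.66% of all genes tested for a lower call with PLX3397, 9.6% for a lower call with PLX3397+Anakinra and 0.116% for a call in either direction with Anakinra. Without overlap between the groups, 2 of 10 were lower with PLX3397 (background 4.91%) and 5 of 10 with PLX3397+Anakinra (background 6.62%). Median log2 differences were -0.31, -0.41 and -0.04 for PLX3397, PLX3397+Anakinra and Anakinra, compared with medians of 0.01, 0.01 and -0.02 over all genes tested. With Anakinra, Tnfaip3 alone had an unadjusted p below 0.05, in limma (p = 0.0115, background 12.4%) and in the exact permutation test (background 11.2%). Of the 10 log2 differences with Anakinra 6 were negative (background 56%). These comparisons share the same 5 vehicle mice. Vehicle mouse J17B was the lowest of its group for 9 of 10 genes, and without it 7 genes were called lower with PLX3397.

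**Figure D3:**
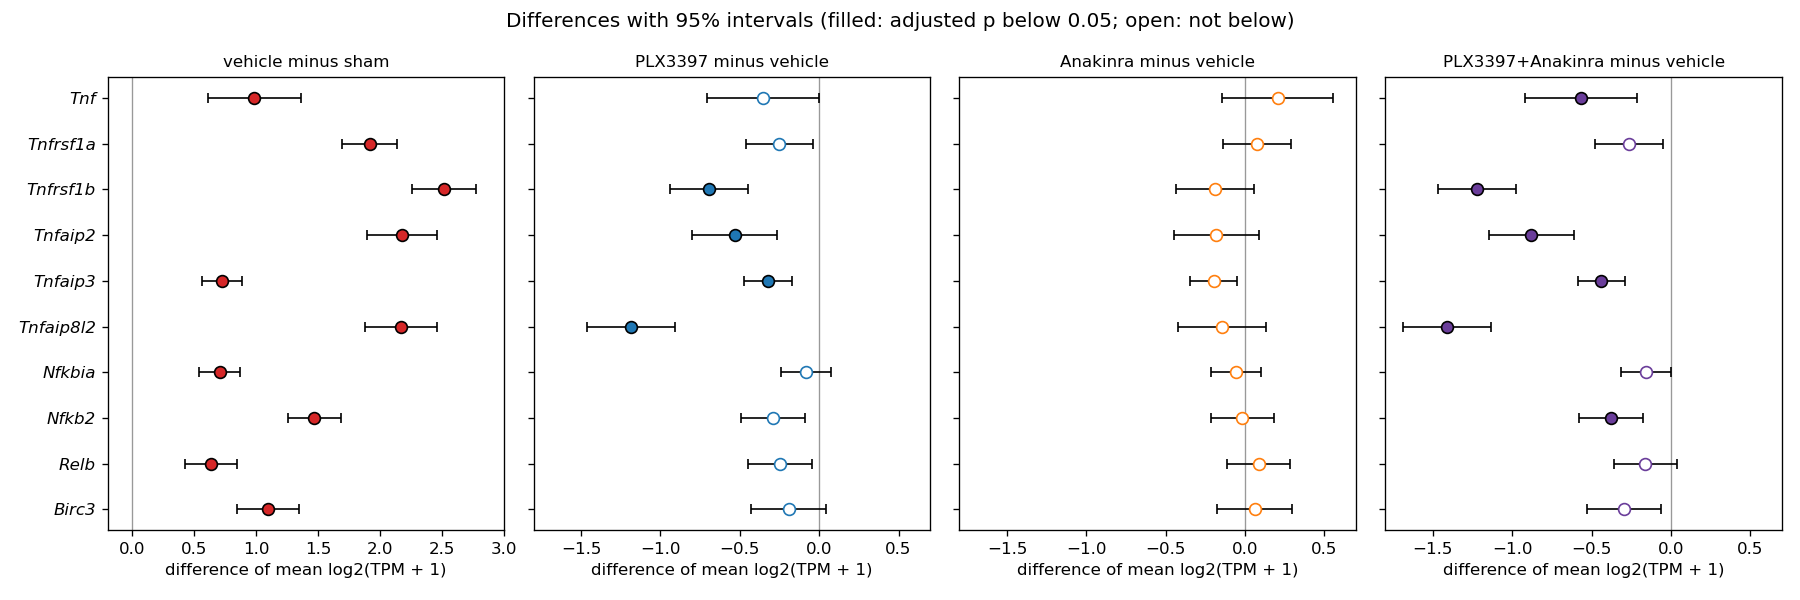
Difference of the group means in log2(TPM + 1) (horizontal axis) with 95% intervals for each gene in 4 comparisons; filled points have an adjusted p below 0.05 and open points do not. All 10 genes are filled in vehicle minus sham, 4 in PLX3397 minus vehicle, none in Anakinra minus vehicle and 6 in PLX3397+Anakinra minus vehicle; the axis of the first panel differs from that of the others.

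Genes of microglia and other leukocytes moved with these changes. The summed level of 10 homeostatic microglial markers ranged from 358 to 379 TPM in sham, 1335 to 1676 TPM in vehicle, 568 to 866 TPM in PLX3397, 1460 to 1653 TPM in Anakinra and 522 to 703 TPM in PLX3397+Anakinra mice. All 10 of these markers were called lower in PLX3397 and in PLX3397+Anakinra than in vehicle mice, and none in Anakinra mice. The summed level of 5 pan-leukocyte markers ranged from 220 to 264 TPM in sham, 941 to 1394 TPM in vehicle, 528 to 807 TPM in PLX3397, 1096 to 1302 TPM in Anakinra and 431 to 538 TPM in PLX3397+Anakinra mice. After TBI 4 of these 5 rose, but Coro1a was lower in vehicle than in sham mice (log2 difference -0.15, adjusted p = 0.0278), and against vehicle 5 were lower with PLX3397 and 4 with PLX3397+Anakinra. The 10 markers of activated phagocytes summed to between 170 and 174 TPM in sham, 2980 and 6605 TPM in vehicle, 2286 and 4016 TPM in PLX3397, 3178 and 4788 TPM in Anakinra and 1370 and 2093 TPM in PLX3397+Anakinra mice. Of these, 9 were higher in vehicle than in sham mice, and against vehicle 9 were lower with PLX3397 and 10 with PLX3397+Anakinra. Against sham, 2 of the 10 phagocyte markers and 2 of the 10 homeostatic markers were lower with PLX3397, and as many with PLX3397+Anakinra. These counts are near the share of all genes. Of 17267 genes tested, 3881 were lower than in sham mice with PLX3397 and 3124 with PLX3397+Anakinra. No marker of these 3 lists was at 0 throughout a group. In bulk tissue, fewer cells of a type and less RNA per cell cannot be told apart, and the part of these markers in the results for the 10 genes was not tested.

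Markers of other cell types were followed in the same way. After TBI, markers outside the microglial and leukocyte lists were called higher as well (background 26.6%). These were 6 of 8 endothelial, 7 of 7 astrocytic, 6 of 6 oligodendrocytic and 6 of 7 pericyte and fibroblast markers. All 8 endothelial and 7 astrocytic markers were tested, and none passed in PLX3397 against vehicle, while 1 astrocytic and no endothelial marker was lower with PLX3397+Anakinra. Of 9 markers of monocytes and neutrophils 5 were expressed highly enough to be tested, and all 5 were higher in vehicle than in sham mice. Against vehicle 2 of them were lower with PLX3397, 2 with PLX3397+Anakinra and 1 with Anakinra. The sum of all 9 ranged from 9.51 to 43.1 TPM in vehicle, 16.1 to 56.8 TPM in PLX3397, 15.9 to 59.7 TPM in Anakinra and 11.6 to 27.8 TPM in PLX3397+Anakinra mice. Its mean was 25.7 TPM with vehicle, 33.5 TPM with PLX3397, 29.1 TPM with Anakinra and 19.9 TPM with PLX3397+Anakinra. The neutrophil gene Ly6g was listed at 0 in all mice of the PLX3397 and of the PLX3397+Anakinra group, but it does not stand for the list. Of 7 markers of pericytes and fibroblasts 3 were higher than in vehicle mice with PLX3397 and 3 with PLX3397+Anakinra. Only 1 of 10 lymphocyte markers passed the filter. Neuronal markers fell in 7 of 8 cases after TBI (background 27.7%), and 5 of 8 were higher with PLX3397+Anakinra than with vehicle (background 7.88%).

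Tnfaip3 encodes A20, an enzyme that edits ubiquitin chains and ends NF-kappaB signalling, and it is a target gene of the pathway that it inhibits. It lies on chr10:19000910-19015410 (minus strand). In sham mice its level was 2.89, 3.44, 3.66 and 3.93 TPM. In vehicle mice it was 5.71, 6.39, 6.44, 6.45 and 6.90 TPM (1.83-fold, log2 difference 0.72 ± 0.08, SE, adjusted p = 1.86e-08). PLX3397 mice had between 4.63 and 5.18 TPM and PLX3397+Anakinra mice between 4.19 and 4.72 TPM, so both groups lay wholly below vehicle. Tnfaip3 fell by 0.32 on the log2 scale with PLX3397 (adjusted p = 0.00412) and by 0.44 with PLX3397+Anakinra (adjusted p = 8.7e-05). With Anakinra it ranged from 4.64 to 5.99 TPM, and its difference from vehicle (-0.20, interval -0.35 to -0.05) had an adjusted p of 0.248 and an exact permutation p of 0.0317, the smallest among the 10 genes in that comparison.

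Nfkbia (chr12:55489409-55492647, minus strand), which encodes the inhibitor IkappaB-alpha, was abundant in every group and behaved otherwise. Sham mice had between 31.0 and 35.1 TPM, and vehicle mice had 49.2, 51.4, 53.8, 61.2 and 61.5 TPM (1.65-fold, log2 difference 0.70 ± 0.08, SE, adjusted p = 6.5e-08). Levels were 46.8, 50.1, 51.8, 55.2 and 57.6 TPM with PLX3397. They were between 48.5 and 55.5 TPM with Anakinra. With PLX3397+Anakinra they were 42.8, 44.2, 50.4, 52.7 and 58.8 TPM. All 4 TBI groups overlapped each other, and no drug comparison of Nfkbia was called. Its difference from vehicle was -0.08 with PLX3397 (interval -0.24 to 0.08, adjusted p = 0.586) and -0.16 with PLX3397+Anakinra (interval -0.31 to 0.0013, adjusted p = 0.172; -0.22 and called without mouse J09). These intervals exclude a fall of the size seen for Tnfrsf1b.

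Promoter sequences were read for the inhibitor genes because they are textbook NF-kappaB targets, and for Tnfrsf1b because it fell more than Tnfrsf1a, the other receptor gene among the 10. RefSeq windows of GRCm38.p6 (250 bases before to 50 bases after each annotated start) were at hand for 9 of the 10 genes, all but Relb. The kappaB consensus, a motif of 10 bases that NF-kappaB dimers bind, was searched by its degenerate form on both strands of the 250 upstream bases. Matches were present for Tnfaip3, Nfkbia and Nfkb2, that is 3 of 9 genes, whereas 3.9% of 32851 RefSeq promoter windows held a match. With a looser form 4 genes matched (Tnfaip2 in addition, background 7.25%). The background counts windows and not genes, and Tnfaip3 and Nfkb2 have several windows each. The genes were also chosen as members or known targets of the pathway. The shares are therefore a description and no test of enrichment. Stretches are printed for the 3 genes that matched the first form, Nfkb2 included. Of the genes without such a match only Tnfrsf1b is printed. In the stretches below, read 5′ to 3′ along the gene's strand up to positions counted from the annotated start, capitals mark the matches.
Nfkbia, chr12:55492648-55492797, 150 bases up to the start: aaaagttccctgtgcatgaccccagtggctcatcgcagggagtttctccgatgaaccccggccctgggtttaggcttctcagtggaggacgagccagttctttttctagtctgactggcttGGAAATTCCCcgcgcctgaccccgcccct
Tnfaip3, chr10:19015411-19015440, bases -30 to -1: gtgactggaatttccatcGGAAATCCCCct
Nfkb2, chr19:46304688-46304717, bases -49 to -20: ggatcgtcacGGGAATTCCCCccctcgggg
Tnfrsf1b, chr4:145246871-145247020, 150 bases up to the start: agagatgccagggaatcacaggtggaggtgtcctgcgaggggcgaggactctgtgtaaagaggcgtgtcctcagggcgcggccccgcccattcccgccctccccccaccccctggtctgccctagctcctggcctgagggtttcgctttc

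The match of Nfkbia lay at bases -29 to -20 and that of Tnfaip3 at bases -12 to -3, with another at bases -125 to -116. The Nfkb2 stretch holds overlapping matches over bases -39 to -29, and a further match lay at bases -11 to -2, all counted from 1 of 3 annotated Nfkb2 starts in the table. Further matches lay at bases -236 to -227 and -225 to -216 of the other 2 starts. For Nfkb2 and for Tnfaip3 alike, 1 annotated exon lies within the 150 bases before the start shown. By the GENCODE annotation Tnfaip3 begins at 19015657 and Nfkb2 at 46304320, so their matches lie within the annotated genes. No match was found for Tnf, Tnfrsf1a, Tnfrsf1b, Tnfaip8l2 or Birc3, which says only that these letters are not in this window. A match describes the sequence and not the binding of a factor, which was not measured.

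Both noncanonical subunit genes rose with TBI, and against vehicle only Nfkb2 fell, with PLX3397+Anakinra. Nfkb2 (chr19:46300994-46312400, plus strand) was between 2.41 and 2.63 TPM in sham mice and at 7.55, 8.55, 9.02, 9.49 and 9.54 TPM in vehicle mice (3.47-fold, log2 difference 1.47 ± 0.10, SE, adjusted p = 1.16e-11). PLX3397 mice had 5.90, 6.19, 7.52, 7.68 and 7.93 TPM and overlapped with vehicle (log2 difference -0.29, adjusted p = 0.0565; called without vehicle mouse J17B, -0.34, or PLX3397 mouse J12, -0.33). PLX3397+Anakinra mice had 5.42, 6.11, 6.90, 6.999 and 7.48 TPM and lay wholly below vehicle (1.34-fold lower, log2 difference -0.38, adjusted p = 0.0079). Anakinra mice spread from 7.20 to 10.2 TPM around the vehicle mean (log2 difference -0.02, interval -0.22 to 0.18, adjusted p = 0.967).

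Relb (chr7:19606217-19629438, minus strand), the partner of p52, had the smallest rise of the 10 genes on the log2(TPM + 1) scale. Sham mice had 4.45, 4.49, 5.90 and 6.11 TPM, and vehicle mice had 7.61, 8.09, 8.97, 9.17 and 9.27 TPM (1.65-fold, log2 difference 0.63 ± 0.10, SE, adjusted p = 1.1e-05). The PLX3397 mice had 5.87, 5.99, 7.42, 7.83 and 8.71 TPM. The 2 lowest of them, J20 and J19, lay inside the sham range. The difference of PLX3397 from vehicle was -0.25 (interval -0.45 to -0.05, adjusted p = 0.114; called without mouse J12, -0.31) and that of PLX3397+Anakinra was -0.16 (interval -0.36 to 0.04, adjusted p = 0.28). Relb was lower with PLX3397 than with Anakinra (log2 difference -0.33, adjusted p = 0.0352), a call that was lost in 6 of 10 omissions of a mouse, those of J01, J19, J20, J05, J06 and J14.

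Birc3 encodes cIAP2, a ubiquitin ligase that joins the TNFR1 complex, and it is a target of NF-kappaB. It lies on chr9:7847468-7873205 (minus strand). How reads were shared with its paralog Birc2 is not stated in the sources used here. Levels were 1.37 to 1.84 TPM in sham and 3.53, 3.59, 5.205, 5.27 and 5.69 TPM in vehicle mice (2.87-fold, log2 difference 1.09 ± 0.12, SE, adjusted p = 3.52e-08). PLX3397+Anakinra mice were closely spaced from 3.42 to 3.87 TPM, PLX3397 mice ranged from 2.99 to 4.71 TPM and Anakinra mice from 4.44 to 5.88 TPM. Against vehicle the difference was -0.30 with PLX3397+Anakinra (interval -0.53 to -0.06, adjusted p = 0.0762; called without vehicle mouse J17B or J20B, both -0.37) and -0.19 with PLX3397 (adjusted p = 0.334).

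Tnfaip2 and Tnfaip8l2 carry TNF in their names but are not inhibitors of IKK signalling in the manner of A20. Tnfaip2 (chr12:111442450-111455018, plus strand) encodes a TNF-induced protein that takes part in forming membrane nanotubes. Sham mice had 0.663, 0.859, 0.903 and 1.10 TPM. Vehicle mice had 4.85, 6.76, 8.11, 9.16 and 9.39 TPM (8.68-fold, log2 difference 2.18 ± 0.14, SE, adjusted p = 1.61e-12). PLX3397 mice had 3.55, 4.84, 4.88, 5.29 and 6.02 TPM and overlapped with the lowest vehicle mouse J17B. PLX3397+Anakinra mice had 2.88, 3.50, 3.58, 3.97 and 4.22 TPM and lay below all vehicle mice. The fall against vehicle was 1.56-fold with PLX3397 (log2 difference -0.53, adjusted p = 0.00816) and 2.11-fold with PLX3397+Anakinra (-0.88, interval -1.15 to -0.61, adjusted p = 1.85e-05). Anakinra differed by -0.18 (interval -0.45 to 0.09, adjusted p = 0.591).

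Tnfaip8l2 (chr3:95139521-95142416, minus strand) encodes TIPE2, a brake on innate and adaptive immune signalling that leukocytes express strongly. It had the largest fall of the 10 genes under the drugs. Sham mice had 2.995, 4.18, 4.25 and 6.92 TPM, and vehicle mice had 17.7, 22.8, 24.3, 24.4 and 28.5 TPM (5.14-fold, log2 difference 2.17 ± 0.14, SE, adjusted p = 3.39e-12). PLX3397 mice had 8.32, 8.66, 9.86, 10.2 and 11.6 TPM. PLX3397+Anakinra mice had 7.43, 7.51, 7.82, 8.28 and 9.79 TPM. Both groups were far below vehicle and just above the highest sham mouse, while Anakinra mice remained between 19.4 and 24.9 TPM. Tnfaip8l2 fell 2.42-fold with PLX3397 (log2 difference -1.19, interval -1.47 to -0.91, adjusted p = 6.72e-07) and 2.89-fold with PLX3397+Anakinra (-1.41, interval -1.69 to -1.14, adjusted p = 1.92e-08). The difference between these groups was -0.22 (interval -0.50 to 0.05, adjusted p = 0.814, exact permutation p = 0.0556).

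Expressed as a share of the rise after TBI, the PLX3397+Anakinra group kept 18.9% of the vehicle minus sham difference in TPM for Tnfaip8l2, 30.1% for Tnfrsf1b, 33.1% for Tnfaip3, 33.2% for Tnf and 40.6% for Tnfaip2. It kept 63.6% for Birc3, 64.3% for Nfkb2, 70.3% for Relb, 74.2% for Nfkbia and 76.7% for Tnfrsf1a. When mice were left out singly, the former 5 genes stayed between 16.5% and 43.3% and the latter 5 between 58.2% and 82.2%. In PLX3397 mice the shares were 27.1% for Tnfaip8l2 and between 48.8% and 85.6% for the other 9 genes. In Anakinra mice they were between 67.7% for Tnfaip3 and 129% for Tnf. The 3 drug groups share the same vehicle and sham mice in these shares, which carry no test.

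**Figure D4:**
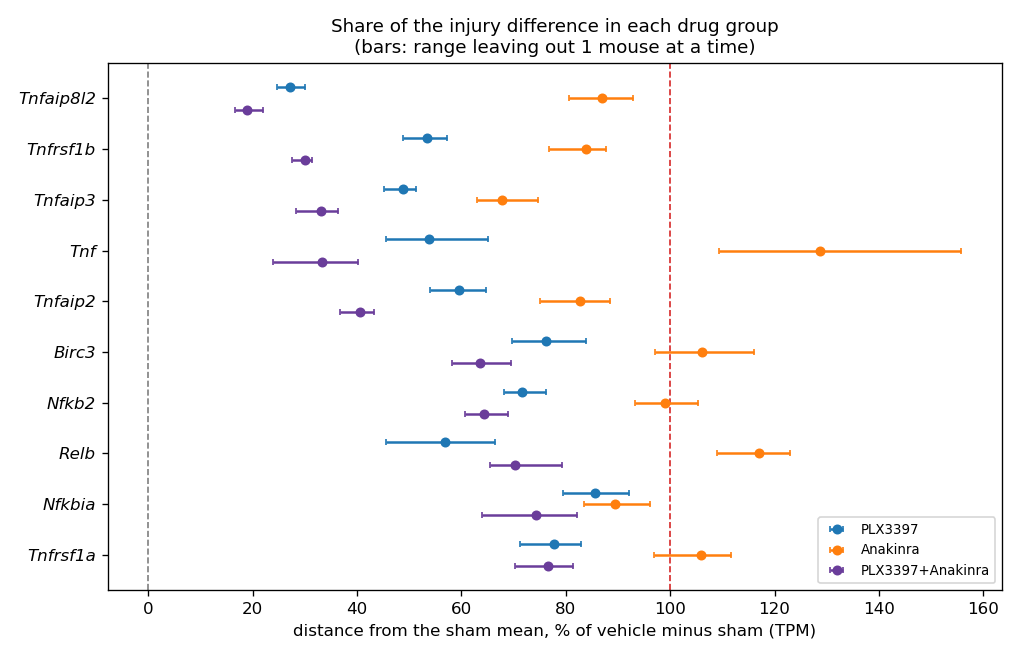
Distance of each drug group's mean TPM from the sham mean, in percent of vehicle minus sham (horizontal axis), for each gene; bars give the range when mice are left out singly, and dashed lines mark sham (grey) and vehicle (red). For PLX3397+Anakinra 5 genes lie between 18.9% and 40.6% and the other 5 between 63.6% and 76.7%.

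Against sham the 10 genes stayed higher in most cases. All 10 were called higher with PLX3397 (background 22.7%) and with Anakinra (background 25.1%), and 9 of 10 with PLX3397+Anakinra (background 20.7%). The exception was Tnf, whose difference between PLX3397+Anakinra and sham was 0.42 on the log2 scale (adjusted p = 0.072), although the groups did not overlap (exact permutation p = 0.0159, the smallest for 5 against 4 mice). With a pseudocount of 0.1 this difference was 1.72 and was called.

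Differences of means among the drug groups do not involve the vehicle mice, which are the only ones with the letter B in their animal numbers. The spread that limma estimates over all 24 libraries does include the vehicle mice, and it enters the adjusted p-values. PLX3397+Anakinra lowered 8 of the 10 genes against Anakinra, all but Nfkbia and Relb (background 8.1%), with the largest log2 differences for Tnfaip8l2 (-1.27, adjusted p = 1.43e-07), Tnfrsf1b (-1.03, adjusted p = 5.14e-07), Tnf (-0.77) and Tnfaip2 (-0.70, adjusted p = 0.000412). Tnfrsf1a (-0.34, adjusted p = 0.0295), Tnfaip3 (-0.24, adjusted p = 0.0288), Nfkb2 (-0.36, adjusted p = 0.0142) and Birc3 (-0.36, adjusted p = 0.04) passed narrowly. Relb did not pass in limma (-0.25, adjusted p = 0.0946), although its groups did not overlap (exact permutation p = 0.00794). Single omissions left between 4 and 8 genes called, with 4 without Anakinra mouse J05 and 5 without Anakinra mouse J21 or PLX3397+Anakinra mouse J17, and without a filter on low values 5 were called. PLX3397 lowered 4 genes against Anakinra, Tnf, Tnfrsf1b, Tnfaip8l2 and Relb (background 5.41%), and 2 without PLX3397 mouse J01. The difference was -0.50 for Tnfrsf1b (adjusted p = 0.00813) and -1.04 for Tnfaip8l2 (adjusted p = 6.18e-06), which no omission ended.

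Adding Anakinra to PLX3397 changed none of the 10 genes by limma's adjusted p, with 0.145% of all genes called lower. The unadjusted exact permutation test gave p below 0.05 for 3 genes, Tnfrsf1b (p = 0.00794), Tnfaip2 (p = 0.0317) and Tnfaip3 (p = 0.0317), compared with 5.36% of all genes. In limma an unadjusted p below 0.05 was found for Tnfrsf1b and Tnfaip2 (background 6.71%). Of the log2 differences 9 of 10 were negative (median -0.11), as were 46.7% over all genes. Of the markers, 3 of 10 for activated phagocytes (median log2 difference -0.49) and 1 of 5 tested for monocytes and neutrophils were called lower in this comparison. No homeostatic microglial marker (median -0.05) and no pan-leukocyte marker (median -0.37) was called. Whether the drugs' changes added up on the log2 scale was tested with the interaction, PLX3397+Anakinra minus PLX3397 set against Anakinra minus vehicle. No gene of the whole table passed (background 0%), while 1395 genes (8.08%) had an unadjusted p below 0.05, none of them among the 10. Nearest were Tnfrsf1b (-0.34, interval -0.69 to 0.0045, adjusted p = 0.623) and Tnf (-0.42, interval -0.91 to 0.08, adjusted p = 0.657).

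Among the 20 mice with TBI, single mice that deviated from their group in leukocyte genes were compared with their deviation in the 10 genes. For each mouse the mean of log2(TPM + 1) over the 5 pan-leukocyte markers and the value of each gene were taken as deviations from the group mean, and 10 relations were tested by permutation within groups. The deviations of Tnfrsf1a followed those of the leukocyte markers (Pearson r = 0.868, Spearman rho = 0.768, permutation p = 3e-05 and 0.00044, adjusted p = 0.00025 and 0.0022). So did those of Tnfrsf1b (r = 0.818, rho = 0.851, permutation p = 5e-05 and 3e-05, adjusted p = 0.00025 and 0.0003) and Tnfaip8l2 (r = 0.775, rho = 0.639, permutation p = 0.00084 and 0.00612, adjusted p = 0.0028 and 0.0153). Without the 2 mice farthest out, PLX3397 mouse J02 and vehicle mouse J17B, r was 0.801, 0.728 and 0.619 for these genes. For Tnfaip3 r was 0.513 (rho = 0.6, permutation p = 0.0116 and 0.00574, adjusted p = 0.029 and 0.0153) and dropped to 0.354 without those mice. The other 6 genes gave r between 0.235 for Tnf and 0.541 for Tnfaip2, none with an adjusted p below 0.05. The difference between strong and weak relations was not tested, and this relation was examined after the group values had been seen. How many of all genes tested follow the leukocyte markers as closely was not examined, so the relations cannot be called particular to these genes.

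The genes most alike in level over the 20 mice with TBI differed from member to member, as a description that includes the group differences. Tnfaip8l2 was most like F11r (r = 0.992), Spi1 (r = 0.990) and Fcrls (r = 0.987). Tnfrsf1b was most like Abcc3 (r = 0.983), Ctsh (r = 0.980) and Cd300c2 (r = 0.979), and Tnfaip2 was most like Ccr1 (r = 0.958), Csf2rb2 (r = 0.954) and Il4ra (r = 0.943). Tnfaip3 was most like 5730559C18Rik (r = 0.932), Soat1 (r = 0.929) and Fuca2 (r = 0.927). Tnfrsf1a was most like Ltbr (r = 0.928), Gtse1 (r = 0.915) and Pfn1 (r = 0.909). Nfkb2 was most like Jak3 (r = 0.918), Wasf2 (r = 0.894) and Plxnb2 (r = 0.892). Tnf was most like Topbp1 (r = 0.889), Spdl1 (r = 0.871) and Parp14 (r = 0.867), and Relb was most like Coro1a (r = 0.878), Incenp (r = 0.871) and Arhgdia (r = 0.870). Birc3 was most like Tgfbi (r = 0.837), Gm35597 (r = 0.806) and Tmem179b (r = 0.801). For Nfkbia the nearest genes reached only r = 0.754 (Plekhf1), 0.735 (LOC108167675) and 0.734 (Sgk1).

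Of 113 further genes of the pathway, 97 were expressed highly enough to be tested. In vehicle against sham 59 were higher and 8 lower, in PLX3397 against vehicle 1 was higher and 16 lower, and in PLX3397+Anakinra against vehicle 2 were higher and 21 lower. Of all genes tested, 26.6% were higher and 27.7% lower in the first of these comparisons, 3.23% higher and 6.66% lower in the second, and 7.88% higher and 9.6% lower in the third. None was called in Anakinra against vehicle or between PLX3397+Anakinra and PLX3397. Median log2 differences over the 97 genes were 0.39, -0.07 and -0.04 for vehicle against sham, PLX3397 against vehicle and PLX3397+Anakinra against vehicle.

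**Figure D5:**
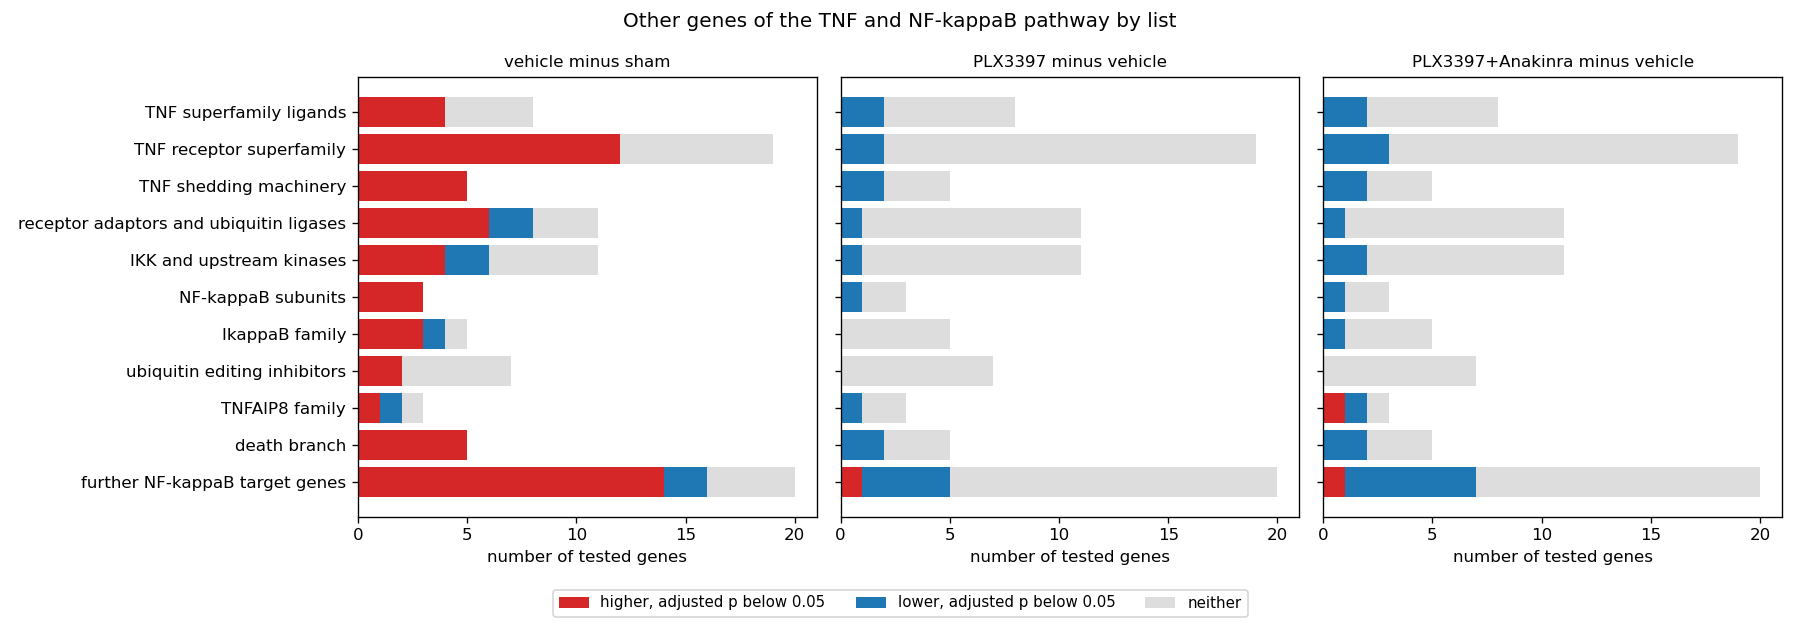
Number of tested genes (horizontal axis) in each list of further pathway genes that were called higher (red), lower (blue) or neither (grey) in 3 comparisons. After TBI 7 of the 11 lists hold mainly higher genes, and under PLX3397 or PLX3397+Anakinra most genes are in grey in every list but the TNFAIP8 family, where 1 of 3 was higher and 1 lower with PLX3397+Anakinra.

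Read against these shares, lists of few genes allow no more than a description of their members. On the side of ligands and release, all 5 genes of TNF shedding were higher in vehicle than in sham mice, among them Rhbdf2 (log2 difference 1.47, adjusted p = 2.53e-10), a pseudoprotease that guides ADAM17, and Adam17 itself (1.20, adjusted p = 1.53e-12). Rhbdf2 (-1.002, adjusted p = 3.88e-07) and Adam17 (-0.52, adjusted p = 6.27e-06) were lower with PLX3397+Anakinra than with vehicle, whereas the other 3 shedding genes did not pass. Of 8 other ligands of the TNF family tested, 4 rose with TBI, and Tnfsf13 (-0.95, adjusted p = 9.81e-07) and Tnfsf12 (-0.43, adjusted p = 0.000228) fell with PLX3397+Anakinra. Of 19 other receptors of the TNF receptor family, 12 rose with TBI, with Tnfrsf12a (1.71, adjusted p = 1.19e-11) and Ltbr (1.40, adjusted p = 6.27e-11) in front. Only Tnfrsf13b (-1.12, adjusted p = 6.7e-07), Tnfrsf11a (-0.81, adjusted p = 8.13e-08) and Tnfrsf14 (-0.58, adjusted p = 0.00619) were lower with PLX3397+Anakinra. Tnfrsf12a, the receptor of TWEAK, stood at 42.0 TPM with vehicle and at 42.8 TPM with PLX3397+Anakinra.

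Downstream of the receptors, 6 of 11 adaptors and ubiquitin ligases rose with TBI and 2 fell, and Ripk1, the kinase that TNFR1 recruits, rose (1.11, adjusted p = 2.17e-10) and was lower with PLX3397+Anakinra (-0.44, adjusted p = 0.000676). Of 11 genes of IKK and of the kinase complexes upstream of it 4 rose and 2 fell, near the 26.6% and 27.7% of all genes, with the largest rise for Ikbke (1.51, adjusted p = 2.84e-10), and Ikbke (-0.60, adjusted p = 0.000746) and Tab2 (-0.18, adjusted p = 0.00064) were lower with PLX3397+Anakinra. The 3 other NF-kappaB subunits rose with TBI, but Nfkb1 alone was lower with PLX3397+Anakinra (-0.39, adjusted p = 0.000165). Among the 5 other genes of the IkappaB family, 3 rose and 1 fell with TBI. Bcl3, a nuclear cofactor, rose most (2.41, adjusted p = 5.16e-13), and Nfkbie alone was lower with PLX3397+Anakinra (-0.44, adjusted p = 0.017). Of 7 other ubiquitin-editing inhibitors 2 rose with TBI, near the 26.6% of all genes, namely Tnip2 (0.18, adjusted p = 0.00812) and Otulin (0.16, adjusted p = 0.026), and none was called under a drug against vehicle.

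All 5 genes of the death branch rose with TBI, including Casp8 (1.76, adjusted p = 1.14e-12), Ripk3 (1.74, adjusted p = 7.83e-08) and Mlkl (1.02, adjusted p = 5.34e-05), of which the latter pair carries out necroptosis. Casp8 (-0.70, adjusted p = 1.94e-05) and Cflar (-0.44, adjusted p = 6.21e-05) were lower with PLX3397+Anakinra, and the other 3 did not pass. In the TNFAIP8 family, Tnfaip8 rose with TBI (1.41, adjusted p = 8.14e-12) and was lower with PLX3397+Anakinra (-0.64, adjusted p = 1.13e-05), Tnfaip8l3 fell with TBI (-0.27, adjusted p = 0.00897) and Tnfaip8l1 was higher with PLX3397+Anakinra (0.26, adjusted p = 0.0215). Of 20 further NF-kappaB target genes tested 14 rose with TBI, led by Bcl2a1b (4.47, adjusted p = 3.97e-17), Ccl2 (3.53, adjusted p = 4.76e-14) and Plau (2.49, adjusted p = 8.76e-11), and 2 fell. With PLX3397+Anakinra 6 of them were lower, again with Bcl2a1b (-1.39, adjusted p = 1.41e-07), Plau (-0.89, adjusted p = 0.0011) and Ccl2 (-0.83, adjusted p = 0.00136) in front, and 1 was higher. Bcl2a1b has near-identical copies, so that its reads may be split between them.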

How the data were processed

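Total RNA of 24 mice was enriched for poly(A) RNA and sequenced in paired-end mode. The authors trimmed and mapped the reads in CLC Genomics Workbench to mm10 (GRCm38) and deposited expression as TPM, scaled by gene length and to 1000000 per library; the low values differ from gene to gene, as scaling by length makes them. TPM keep no read counts, so the depth is unknown and precision rests on the spread between mice. Between 22160 and 23249 genes per library were above 0, and no library pair was identical. The table in full precision was used; a rounded copy and a filtered table were alternatives, and p-values and F values of the authors' own tests in the latter were not used. Gene positions were taken from RefSeq GRCm38.p6, since the deposited coordinates belong to a strain assembly.

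Groups followed the labelled treatments. limma 3.58.1 (R 4.3.3) was fitted to log2(TPM + 1) of the 17267 genes whose mean reached 0.5 TPM, with all 24 libraries in 1 model, a mean per group and a variance trend. Adjusted p-values are Benjamini-Hochberg values over all genes tested, and the fit was tested on simulated data. For single values an exact permutation test over mice (two-sided, scipy 1.17.1) was run, and for relations 100000 permutations within groups. Further pathway genes named are the up to 3 per list with the largest difference among those called after TBI or under PLX3397+Anakinra, and the alike genes are the 3 with the highest r. The 10 genes, the lists and the tests were chosen with earlier results of these data known. Alternatives were another pseudocount, other filters, median-ratio scaling, only the compared groups, the other tables, the limits of the study (unadjusted p below 0.05, ratio above 2, difference above 4 TPM), a replicate block and leaving out each mouse. The vehicle mice alone carry the letter B in their numbers; if it marks a batch, batch and vehicle treatment cannot be told apart.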

Additional observations from a re-analysis of the deposited data

Results flagged for a closer look

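In 50 sets of values (10 genes in 5 groups) 4 single mice stood apart from the rest of their group by Dixon's 95% criterion, where chance gives about 1 in 20. All 4 were the highest of their group. Tnf was 0.867 TPM in PLX3397+Anakinra mouse J17, next to 0.448 TPM in the second highest mouse, and Tnfrsf1b was 9.96 TPM in PLX3397+Anakinra mouse J03, next to 8.64 TPM. Tnfaip8l2 was 24.9 TPM in Anakinra mouse J05, next to 20.8 TPM, and Birc3 was 5.88 TPM in Anakinra mouse J06, next to 4.81 TPM.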

How the results depend on the processing

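Of the alternatives' log2 differences of single genes, 1671 kept their direction and side of the threshold, 81 lost a call, 19 gained one and 12 changed sign. All 12 were close to 0 and belonged to differences without a call. In Anakinra minus vehicle, Tnfrsf1a was -0.0341 without J17B (range over omissions -0.0341 to 0.131), Nfkb2 was 7.3e-05 with median-ratio scaling and positive without J01B, J18B, J06 or J21 (0.00992, 0.00817, 0.027 and 0.0439; range -0.0692 to 0.0439), and Birc3 was -0.0097 and -0.0144 without J17B or J20B (range -0.0144 to 0.126). In PLX3397+Anakinra minus PLX3397, Tnfrsf1a was 0.0458, 0.0206 and 0.0528 without J02, J12 or J17 (range -0.0815 to 0.0528). In PLX3397 minus Anakinra, Nfkbia was 0.0139 without J01 (range -0.0597 to 0.0139). The receptor ratio of PLX3397+Anakinra minus sham was 0.00239 without J15 (range -0.041 to 0.00239). With a mean of at least 5 TPM only Tnfrsf1a, Tnfrsf1b, Tnfaip8l2, Nfkbia, Nfkb2 and Relb could be tested. All 6 were called in vehicle, PLX3397 and Anakinra against sham. Of these 6, 2 were called in PLX3397 and 3 in PLX3397+Anakinra against vehicle, and 4 in PLX3397+Anakinra against Anakinra. Under the limits of the study 5 genes were called in vehicle, PLX3397 and Anakinra against sham, and 3 in PLX3397+Anakinra against sham. In PLX3397 1 and in PLX3397+Anakinra 3 were called against vehicle, and 2 in PLX3397+Anakinra and 1 in PLX3397 against Anakinra. The limits of fold and of TPM leave out low and moderate changes. Without a filter the counts against Anakinra were 5 for PLX3397+Anakinra and 2 for PLX3397; the cause was not tested. Exact permutation of TPM gave 1 gene in Anakinra against vehicle and 3 in PLX3397+Anakinra against PLX3397. Leaving out single mice gave 4 to 7 genes in PLX3397 and 5 to 8 in PLX3397+Anakinra against vehicle, 0 to 1 in PLX3397+Anakinra against PLX3397, 4 to 8 in PLX3397+Anakinra and 2 to 4 in PLX3397 against Anakinra. For 3 pairs of vehicle and PLX3397 mice that share an animal number, r of the deviations was 0.17, -0.13 and -0.07. So few pairs cannot settle whether the numbers pair mice. With these numbers as a replicate block 4 genes were called in PLX3397 against vehicle, as without. Vehicle mouse J17B and PLX3397+Anakinra mouse J17 also share a number, and this pair was not examined. The depth is unknown and limits Tnf most, which reached at most 2.16 TPM in a mouse.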
